A study of Mus musculus with 8 samples.

Results

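Among the autosomal gene bodies in which hippocampal CG methylation differed between DNA glycosylase deficient and wild type mice, 600 deposited region entries spanned more than 100 kb and at most 300 kb. They were chosen by that span and by lying on chromosomes 1 to 19, with no use of the methylation values. They make up 600 of 2612 autosomal CG gene-body entries, of 4871 CG entries and of 9329 entries over all sequence contexts. The entries belong to 412 genes: 181 genes in Mutyh-/-, 157 in Ogg1-/- and 205 in the double knockout (DKO), with 310 genes in the table of 1 genotype, 73 in the tables of 2 and 29 in all 3. Where a gene had several entries in a genotype, the longest was used, which left 543 combinations of gene and genotype.

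DNA was taken from the whole hippocampus of 6-month-old male mice on the C57BL/6N background and sequenced after bisulfite conversion, which leaves 5-methylcytosine as a cytosine and turns unmethylated cytosine into a thymine in the reads. The groups were Mutyh-/- mice, which lack the adenine DNA glycosylase Mutyh, Ogg1-/- mice, which lack the 8-oxoguanine DNA glycosylase Ogg1, DKO mice (Mutyh-/-xOgg1-/-), which lack both, and WT mice. The DKO mice were obtained by crossing the single knockouts. Each group had 2 libraries, 8 in all, and no label names the animal behind a library, so that differences within a genotype may be technical. All 3 knockout genotypes were set against the same WT libraries. The composition of the tissue cannot be checked with marker expression in methylation tables, and the read depth behind each region's value is unknown.

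Methylation of CG dinucleotides in mammals is set by DNA methyltransferases and copied at replication, and most CG sites inside genes are methylated while CG-rich promoters are not. Gene bodies of transcribed genes are usually highly methylated, and in neurons methylation outside the CG context also builds up after birth. Ogg1 removes the oxidised base 8-oxoguanine and Mutyh removes adenine paired with it. Genes of 100 to 300 kb are mostly genes with long introns, and in the brain many of them encode ion channels, adhesion molecules and synaptic scaffolds.

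The authors compared each knockout library with each WT library, which gave 4 library pairs, and deposited a region only when it was called in the same direction in all 4 pairs. Every region described here is therefore a called region, and genes without a call were not analysed here. In this text a level is the methylated percentage derived from the deposited median score of a region, and a difference is the knockout mean minus the WT mean in percentage points. A gain is a hypermethylated region and a loss a hypomethylated one. No test was added, because 2 libraries against 2 cannot give an exact two-sided permutation p below 0.333 and because regions are not replicates. Of the 412 genes, 401 matched the RefSeq annotation of GRCm38 by symbol and 7 by synonym, and 393 (95.4%) were protein-coding, against 87% of the 1978 annotated autosomal genes with a body of 100 to 300 kb.

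As examples of sequence outside annotated exons, labelled intronic here, the 200-base stretch with most CG is printed for 9 gene bodies. They are the largest gain and the largest loss in Mutyh-/- and in DKO, a leading gain and a leading loss in Ogg1-/-, and 3 genes called in all 3 genotypes. Annotated exons and repeat-masked bases were left out. Zeb1, Mup2 and Sncaip, which changed more in Ogg1-/- than Gtdc1 and Pde5a, are not printed. Sequences are from the forward strand of the RefSeq GRCm38 assembly, 5′ to 3′, with each CG in capitals.
Pds5b (chr5:150698597-150698796, intronic, largest gain in Mutyh-/-): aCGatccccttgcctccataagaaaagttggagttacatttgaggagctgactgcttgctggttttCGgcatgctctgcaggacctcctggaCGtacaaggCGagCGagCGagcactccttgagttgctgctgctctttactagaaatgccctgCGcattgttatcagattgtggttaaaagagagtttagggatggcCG
Grb10 (chr11:12026326-12026525, intronic, largest loss in Mutyh-/-): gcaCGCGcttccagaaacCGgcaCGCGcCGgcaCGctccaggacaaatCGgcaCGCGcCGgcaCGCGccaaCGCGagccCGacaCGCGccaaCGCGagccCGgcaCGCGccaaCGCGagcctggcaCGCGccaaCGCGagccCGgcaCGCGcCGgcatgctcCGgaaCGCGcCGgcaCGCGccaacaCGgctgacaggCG
Gtdc1 (chr2:44646388-44646587, intronic, leading gain in Ogg1-/-): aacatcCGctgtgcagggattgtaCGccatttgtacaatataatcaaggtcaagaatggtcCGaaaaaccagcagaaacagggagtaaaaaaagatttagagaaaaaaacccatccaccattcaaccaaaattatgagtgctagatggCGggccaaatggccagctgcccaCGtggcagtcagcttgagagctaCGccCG
Pde5a (chr3:122827436-122827635, intronic, leading loss in Ogg1-/-): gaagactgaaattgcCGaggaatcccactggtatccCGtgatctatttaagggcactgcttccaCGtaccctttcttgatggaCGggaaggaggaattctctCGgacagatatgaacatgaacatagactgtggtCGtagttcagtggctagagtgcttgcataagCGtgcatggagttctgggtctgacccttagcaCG
Gli3 (chr13:15570905-15571104, intronic, largest gain in DKO): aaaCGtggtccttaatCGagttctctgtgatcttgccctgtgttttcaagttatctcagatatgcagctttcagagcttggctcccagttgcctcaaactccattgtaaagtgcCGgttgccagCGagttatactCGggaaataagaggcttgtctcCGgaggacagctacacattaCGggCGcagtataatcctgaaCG
Pms1 (chr1:53194386-53194585, intronic, largest loss in DKO): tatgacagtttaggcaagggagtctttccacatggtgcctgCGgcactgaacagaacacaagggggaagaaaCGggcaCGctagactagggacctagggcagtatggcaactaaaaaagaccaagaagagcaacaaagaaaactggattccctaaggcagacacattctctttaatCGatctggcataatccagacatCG
Scn1a (chr2:66383447-66383646, intronic, gain in all 3 genotypes): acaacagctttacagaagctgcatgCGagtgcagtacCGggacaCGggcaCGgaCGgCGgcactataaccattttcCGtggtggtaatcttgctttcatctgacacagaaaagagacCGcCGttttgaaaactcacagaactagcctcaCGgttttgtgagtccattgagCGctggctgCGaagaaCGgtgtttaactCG
Shank2 (chr7:144284179-144284378, intronic, gain in all 3 genotypes): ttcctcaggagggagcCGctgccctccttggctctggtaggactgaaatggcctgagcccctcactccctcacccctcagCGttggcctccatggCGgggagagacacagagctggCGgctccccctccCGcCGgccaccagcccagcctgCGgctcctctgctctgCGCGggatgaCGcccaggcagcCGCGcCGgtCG
Kif1b (chr4:149184478-149184677, intronic, loss in all 3 genotypes): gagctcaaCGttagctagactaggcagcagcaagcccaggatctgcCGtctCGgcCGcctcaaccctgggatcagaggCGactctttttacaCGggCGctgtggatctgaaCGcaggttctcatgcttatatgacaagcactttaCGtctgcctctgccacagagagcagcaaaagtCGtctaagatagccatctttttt
The stretches held 5 to 41 CG in these genes. A shorter Shank2 entry begins at chr7:144285385, so the Shank2 stretch lies within 1 kb of an alternative transcript start and may be promoter sequence. A shorter Grb10 entry, called outside the CG context, ends at chr11:12026971, close to the Grb10 stretch, which may be promoter sequence too. The Grb10 stretch, with 41 CG, was far denser than the others, while the whole Grb10 body had 923 CG (8.80 per kb) and the Pds5b body 881 CG (6.53 per kb). The deposited level is a single median per region entry, and how much of the region's sequence entered it is not stated. Nested entries can differ widely: in Clasp2 in Mutyh-/- the WT mean was 86.25% in the longer and 40.5% in the shorter entry. The stretches have no level of their own.

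By the span of the deposited region, gains outnumbered losses in each genotype, but in Mutyh-/- only narrowly. In Mutyh-/- 97 genes were gains and 84 losses (53.6% gains), in Ogg1-/- 93 and 64 (59.2%), and in DKO 147 and 58 (71.7%). The Mutyh-/- majority turned with the span rule: there were 85 gains and 93 losses (47.8% gains) when genes were chosen by RefSeq gene length, and 61 gains and 63 losses (49.2%) with regions of 120 to 250 kb. Among all autosomal CG gene bodies of the same tables the share of gains was 42.6% in Mutyh-/-, 52.4% in Ogg1-/- and 54.1% in DKO. Of the annotated genes of 100 to 300 kb, 8.95% had a call in Mutyh-/-, 7.74% in Ogg1-/- and 9.76% in DKO, where the share over all annotated genes above 2 kb was 2.43%, 1.98% and 2.61% in the same order.

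The size of the differences varied little. Gains had a median of 20.5 percentage points in Mutyh-/-, 20.75 in Ogg1-/- and also 20.5 in DKO. Losses had a median of -20.25 in Mutyh-/-, -20 in Ogg1-/- and -20.9 in DKO. The whole range was 16.5 to 32.25 in Mutyh-/-, 17 to 41.5 in Ogg1-/- and 16.75 to 31 in DKO, in either direction. The authors kept regions beyond a relative ratio of 0.1 in size, so changes well under it are missing from the tables. Recomputed from the rounded deposited medians, the smallest relative ratio was 0.0952 in Mutyh-/-, 0.0957 in Ogg1-/- and 0.0963 in DKO. The smallest difference among the 4 pairs of a gene had a median of 18 percentage points in each genotype and direction.

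Gains and losses started from different WT levels. For gains, the median level in Mutyh-/- was 81.75%, against 59.75% in WT. In Ogg1-/- it was 84% against 62.5% in WT, and in DKO 83.5% against 62.25% in WT. For losses, the median level was 61.75% in Mutyh-/- against 82% in WT, 59.9% in Ogg1-/- against 80.1% in WT, and 62.5% in DKO against 83.5% in WT. The knockout level of gained genes thus lay near the WT level of lost genes, and the reverse held too. No gene with a WT level of 80% or more was a gain in any genotype. The score ends at full methylation, so a region close to 100% in WT can be called a loss but not a gain.

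**Figure D1:**
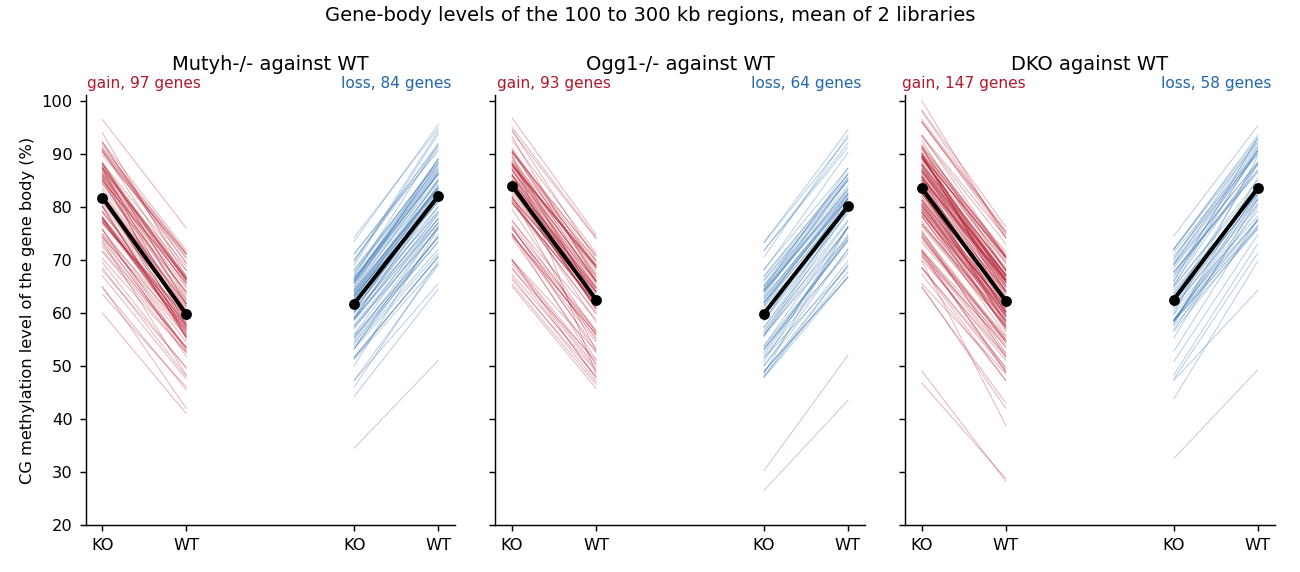
Level of each gene body of 100 to 300 kb in the knockout (KO) and in WT, as the mean of 2 libraries in percent, with 1 thin line per gene and the black line joining the medians. Gains (red) lie mostly between the WT median of about 60% and a knockout median above 81%, and losses (blue) run the other way.

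The spread between the libraries of a genotype was usually smaller than these differences, but not in every gene. For gained genes, the median SD between the 2 libraries was 4.60 percentage points for Mutyh-/- against 4.60 for WT, 3.89 for Ogg1-/- against 3.89 for WT, and 4.60 for DKO against 4.24 for WT. An SD above 10 percentage points in the knockout or WT libraries was found in 23 of 97 gains and 15 of 84 losses in Mutyh-/-, 22 of 93 and 11 of 64 in Ogg1-/-, and 45 of 147 and 10 of 58 in DKO. At the level of libraries, the knockout and WT values did not overlap in 179 of 181 genes in Mutyh-/-, in 157 of 157 in Ogg1-/- and in 197 of 205 in DKO. Over all autosomal CG gene bodies these shares were 98.8%, 98.7% and 97.5%, so the long genes did not stand apart. A call in the same direction in all 4 pairs nearly fixes this separation in advance. The level of one library also depended on which library it was paired with: for gains, the median shift of a WT library between its 2 pairs reached 8.5 percentage points in the Mutyh-/- table, 7.5 in the Ogg1-/- table and 8 in the DKO table. Counting every pair value, no overlap was left in 65 gains and 68 losses in Mutyh-/-, 69 and 48 in Ogg1-/-, and 89 and 47 in DKO, where the share over all gene bodies was 79.7%, 77.3% and 74.2%.

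Within the class, the direction moved with the span. In Mutyh-/- 25 of 61 genes of 100 to 150 kb were gains (41%), 17 of 44 of 150 to 200 kb (38.6%), 28 of 43 of 200 to 250 kb (65.1%) and 27 of 33 of 250 to 300 kb (81.8%). In Ogg1-/- the counts were 25 of 53 (47.2%), 18 of 42 (42.9%), 20 of 25 (80%) and 30 of 37 (81.1%). In DKO they were 39 of 71 (54.9%), 33 of 48 (68.8%), 37 of 43 (86%) and 38 of 43 (88.4%). The step lay near 200 kb in both single knockouts, with no rise between the first classes, whereas in DKO the share rose at each step. The median span was 212 kb for gains and 157 kb for losses in Mutyh-/-, 208 and 156 kb in Ogg1-/-, and 202 and 135 kb in DKO. Gene bodies up to 30 kb had 6.51%, 11.1% and 9.09% gains in Mutyh-/-, Ogg1-/- and DKO, and those over 300 kb had 93.3%, 94.6% and 94.9%.

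**Figure D2:**
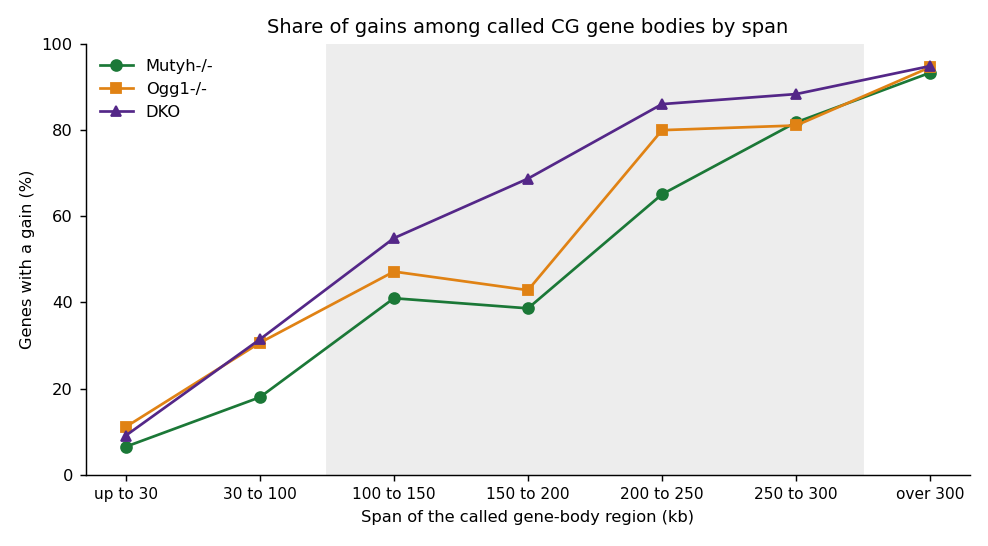
Share of gains in percent among called autosomal CG gene bodies by the span of the region in kb, with 1 line per knockout genotype and the classes from 100 to 300 kb shaded. The share crosses from a minority at 100 to 150 kb in both single knockouts to above 80% at 250 to 300 kb in all 3 genotypes.

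Because gains began from lower WT levels, the direction was also counted at WT levels of 60 to 80% only. There the gains were 48 of 79 genes for Mutyh-/- (60.8%), 63 of 92 for Ogg1-/- (68.5%) and 93 of 108 for DKO (86.1%). In the same WT range, gene bodies up to 30 kb had 3.48%, 6.93% and 6.25% gains in Mutyh-/-, Ogg1-/- and DKO, those of 30 to 100 kb 20.9%, 18.2% and 46.6%, and those over 300 kb 96.9%, 94% and 97.7%. The order of the span classes was therefore also present at matched WT level. At WT levels of 70 to 80%, 19 of 32 genes were gains in DKO, 8 of 34 in Mutyh-/- and 7 of 28 in Ogg1-/-.

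Gained and lost genes also differed in how densely their sequence carries CG dinucleotides, the site that is measured. In the GRCm38 sequence of the regions, gains had a median of 7.05 CG per kb and losses 10.2 CG per kb in Mutyh-/-, 7.14 and 9.88 in Ogg1-/-, and 7.13 and 9.28 in DKO. All annotated genes of this size had a median of 8.95 CG per kb, with the middle 50% between 6.84 and 11.4. The GC content followed the same order, with medians of 40.8% for gains and 43.8% for losses in Mutyh-/-, 40.7% and 43.2% in Ogg1-/-, and 40.9% and 43.1% in DKO. Sequence was read for all but Mup2 and Fam163a, in which more than 10% of the bases are undetermined in the reference.

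The density did not merely repeat the span. Among genes of 100 to 150 kb alone, gains had a median of 7.23 CG per kb and losses 10.2 in Mutyh-/-, 6.84 and 9.32 in Ogg1-/-, and 7.23 and 9.5 in DKO. Of the genes of 100 to 200 kb, those with up to 8 CG per kb were gains in 29 of 41 cases for Mutyh-/-, 30 of 44 for Ogg1-/- and 50 of 67 for DKO, whereas those above 8 CG per kb were gains in 13 of 64, 12 of 50 and 22 of 51. At 200 to 300 kb the same counts were 39 of 44, 30 of 31 and 51 of 54 below that density, and 16 of 32, 20 of 31 and 24 of 32 above it. At WT levels of 60 to 80%, genes up to 8 CG per kb were gains in 37 of 39, 42 of 48 and 71 of 72 cases, and denser genes in 11 of 40, 21 of 44 and 22 of 35. Span, WT level and CG density thus each moved with direction, the WT level in part through the call rule, and their separate parts were not tested.

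**Figure D3:**
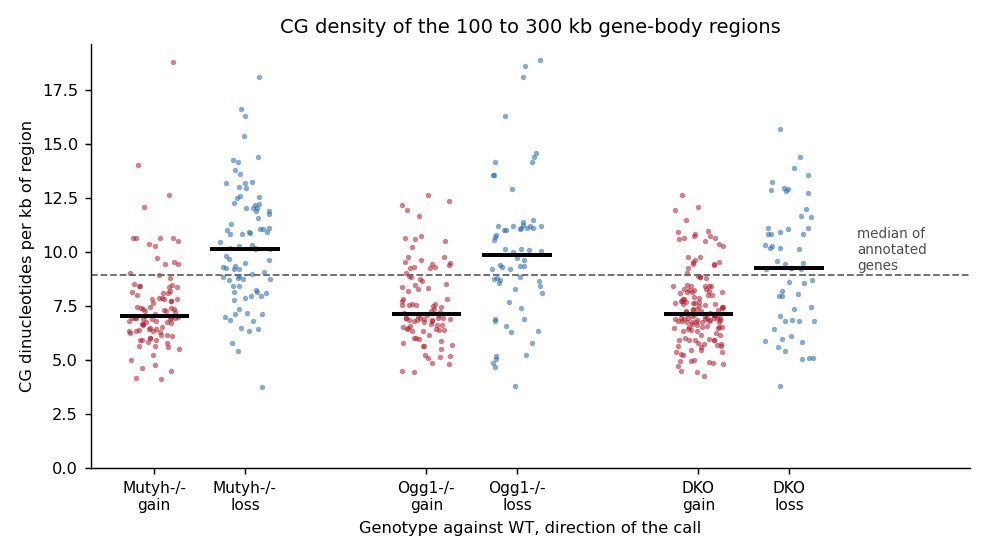
CG dinucleotides per kb of reference sequence in each gene body of 100 to 300 kb, by genotype and direction, with black bars at the medians and a dashed line at the median of all annotated genes of this size. Gains lie around 7 CG per kb in each genotype, below the dashed line at 8.95, and losses lie around it or above.

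In Mutyh-/- the largest gain was in Pds5b, which encodes a regulator of the cohesin ring that holds chromatin loops and sister chromatids (chr5:150674827-150809669). Its level was 82% and 92.5% in Mutyh-/-, against 44% and 66% in WT (difference 32.25). Without WT replicate 1 the difference was 21, so that library carried much of it, although the libraries of the groups did not overlap. Rab3c, a small GTPase of secretory vesicles, had 94% and 81% in Mutyh-/-, against 65% and 52% in WT. Slc8a3, a sodium/calcium exchanger, had 87% and 84.5% in Mutyh-/- and a wide spread of 41.5% and 74% in WT. Pkhd1l1, a relative of the polycystic kidney protein fibrocystin, reached 100% and 88% in Mutyh-/-, against 64.5% and 69% in WT. Poln, a DNA polymerase that copies past damaged bases, had 88.5% and 76% in Mutyh-/-, against 56% in both WT libraries.

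The largest loss in Mutyh-/- was in Grb10, an imprinted adaptor protein that dampens insulin and growth factor receptors (chr11:11931499-12036420). Both Mutyh-/- libraries had 50%, against 82.5% and 69.5% in WT (difference -26). Arhgap35, a GTPase-activating protein, had 68.5% and 70.5% in Mutyh-/-, against 94.5% and 94% in WT. Herc2, a giant ubiquitin ligase, had 64% and 74% in Mutyh-/-, against 95% and 92.5% in WT. In Arhgap35 and Herc2 the WT libraries were near full methylation and close to each other, whereas those of Grb10 were lower and further apart. Pip4k2a, a phosphoinositide kinase, and Zfp609, a zinc finger protein, were lower by -24.75 and -24.25 percentage points.

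In Ogg1-/- the largest difference of all genes of this class was the gain in Zeb1, a zinc finger repressor known from the epithelial to mesenchymal transition (chr18:5592860-5774468). Its level was 86% and 94% in Ogg1-/-, against 43% and 54% in WT (difference 41.5). Its relative Zeb2, which shares the repressor function, was a loss in the same genotype, with 47.5% and 67% in Ogg1-/-, against 73% and 86.5% in WT. Gtdc1, a glycosyltransferase-like gene that lies 123889 bp from Zeb2, was a gain, with 93.5% and 93% in Ogg1-/-, against 59% and 73% in WT. These neighbours carried opposite calls, but of the pairs of called genes within 200 kb of each other that do not overlap, 3 of 5 for Mutyh-/-, 1 of 2 for Ogg1-/- and 6 of 7 for DKO had the same direction. Lama4, a laminin chain of basement membranes, had 94.5% and 84% in Ogg1-/-, against 52% and 73% in WT. Foxp2, a forkhead transcription factor known for its role in speech and vocal learning, had 86% and 88% in Ogg1-/-, against 48% and 76% in WT. The region named Mup2, a major urinary protein, was second in size (difference 29), but it covers 136751 bp where the annotated gene is 4065 bp long and lies elsewhere in that multigene cluster, so its gene name is uncertain.

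The largest loss in Ogg1-/- was in Sncaip, which encodes the alpha-synuclein partner synphilin-1, with 54% and 43% in Ogg1-/-, against 82.5% and 70% in WT (difference -27.75). Pde5a, the phosphodiesterase that degrades cyclic GMP (chr3:122730158-122858374), had 46% and 55.5% in Ogg1-/-, against 77.5% and 75% in WT. Fmnl2, a formin that builds actin filaments, had 55.5% and 57% in Ogg1-/-, against 82% and 78% in WT. Brinp1, a nervous system gene, Pld1, phospholipase D, and Antxr2, a receptor of the extracellular matrix, were lower by -23.5, -23.25 and -23 percentage points.

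In DKO the largest gain was in Gli3, a transcription factor of Hedgehog signalling (chr13:15464723-15729025). It had 74% and 65.5% in DKO, against 36.5% and 41% in WT (difference 31), so its WT level was far below that of most gained genes. Ralgapa1, a subunit of the complex that switches off Ral GTPases, had 94% and 89% in DKO, against 48.5% and 75.5% in WT, and its difference of 29.5 was 19.5 without WT replicate 1. Ptpn4, a tyrosine phosphatase, had 84.5% and 95.5% in DKO, against 60% and 66% in WT. Gm5622 was at 100% in both DKO libraries, against 75.5% and 72.5% in WT, the one gene of the class with full methylation in both knockout libraries. Col22a1, a collagen of tissue junctions, had 93% and 82.5% in DKO, against 61% and 63% in WT.

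The largest loss in DKO was in Pms1, a mismatch repair protein (chr1:53190189-53295996). Its DKO libraries were far apart, with 42% and 77.5%, against 94.5% and 84.5% in WT, so the SD in DKO (25.1) was close to the difference of -29.75. By contrast, Nek10, a kinase of the NIMA family, had 65.5% and 66.5% in DKO, against 91.5% and 94.5% in WT. 4932438A13Rik had 56.5% and 59% in DKO, against 89.5% and 81.5% in WT. Kansl1, a scaffold of a histone acetyltransferase complex, had 67% and 43.5% in DKO, against 79% and 84% in WT. Fam163a had 36% and 51.5% in DKO, against 74% and 65.5% in WT, and its difference of -26 was -17 without DKO replicate 1. Cwc27, a spliceosome-associated protein, had 66% and 59% in DKO, against 87% and 89% in WT.

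In 8 DKO genes the library levels of the groups overlapped, and 2 of them were chosen as examples after their values were seen. Ppp2r5e, a regulatory subunit of protein phosphatase 2A, had 97% and 46.5% in DKO, against 58.5% and 50.5% in WT. Cngb3, a cyclic nucleotide-gated channel subunit of cone photoreceptors, had 71.5% and 70.5% in DKO, against 24% and 75% in WT. All 4 pairs were still called in 1 direction, with the level of a library differing between its pairs.

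The 12 genes with the largest mean size among those called in all 3 genotypes were led by Cemip, Scn1a and Shank2. Since the 3 comparisons share their WT libraries, the values are given side by side and no agreement is counted. Scn1a, the sodium channel of inhibitory neurons, had 83% and 81.5% in Mutyh-/-, against 53% and 67.5% in WT. In Ogg1-/- it had 83.5% and 75.5%, against 61.5% and 51% in WT. In DKO it had 91.5% and 75.5%, against 62.5% and 54% in WT. The WT libraries ranked in opposite order in the first of these comparisons and in the others, although they are the same libraries.

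Shank2, a scaffold of the postsynaptic density (chr7:144176520-144421675), had 84.5% and 85.5% in Mutyh-/-, against 52% and 66% in WT. In Ogg1-/- it had 80.5% and 89%, against 62.5% and 65.5% in WT, and in DKO 72.5% and 78.5%, against 42% and 61.5% in WT. The knockout libraries lay above the WT libraries each time. Cemip, which binds hyaluronan, gained 22.5 percentage points in both single knockouts and 27 in DKO. Adcy8, a calcium-stimulated adenylyl cyclase of neurons, gained 21 in Mutyh-/-, 25.5 in Ogg1-/- and 23.5 in DKO, with its lowest knockout library at 84.5% and its highest WT library at 69%. Esr1, the oestrogen receptor alpha, gained 24.75 in Mutyh-/-, 23.75 in Ogg1-/- and 20.75 in DKO. Syn2, a synaptic vesicle protein, gained 24.75, 20.5 and 19.5 in the same order, Pde4b, a cyclic AMP phosphodiesterase, 20, 21.75 and 25.5, and Ptk2, the focal adhesion kinase, 20.25, 24 and 21.

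Kif1b, a kinesin that carries synaptic vesicle precursors and mitochondria along axons, was the loss among these 12 genes. It had 56.5% and 35.5% in Mutyh-/-, against 69.5% and 70% in WT. In Ogg1-/- it had 50% and 57.5%, against 68% and 79.5% in WT, and in DKO 64% and 53.5%, against 73% and 85.5% in WT. Its body carried 11.1 CG per kb, above Scn1a with 6.97 and Shank2 with 9.52. Stxbp5l, a syntaxin-binding protein that restrains exocytosis, Nol4l, and Acaca, the acetyl-CoA carboxylase of fatty acid synthesis, were gains of 19 to 24.25 percentage points.

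**Figure D4:**
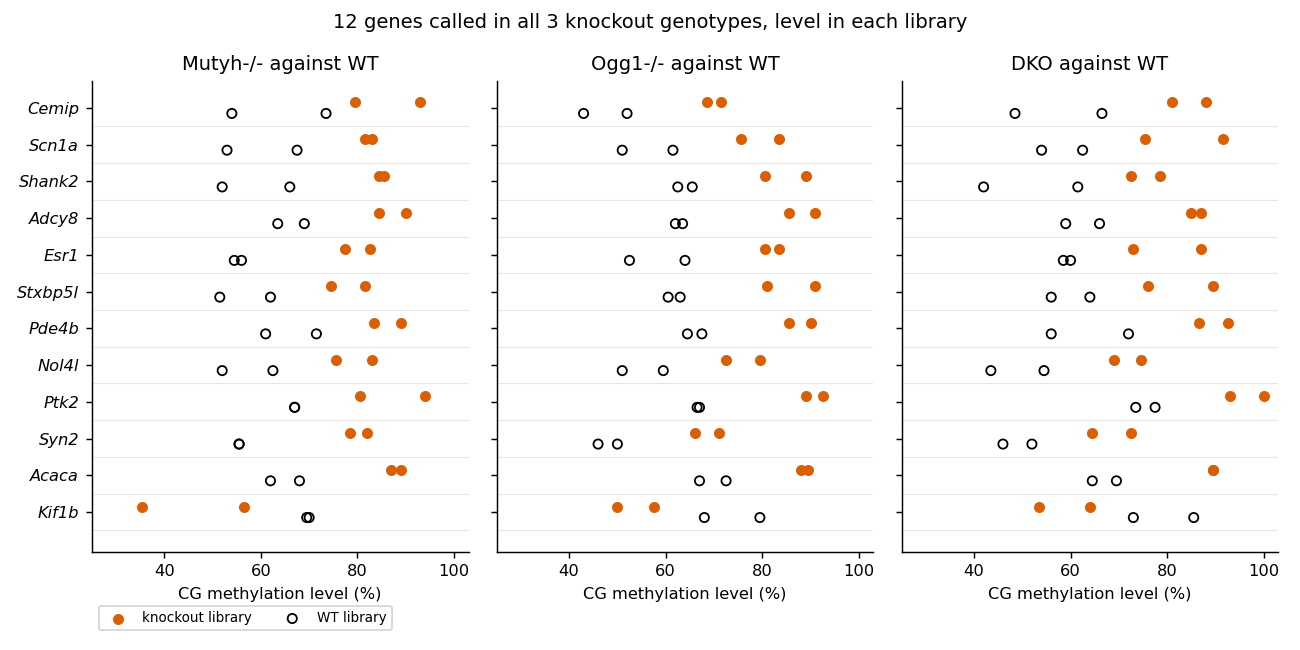
CG methylation level in percent of each library for 12 genes called in all 3 knockout genotypes, knockout libraries filled and WT libraries open, 1 panel per genotype. The knockout points lie to the right of the WT points in all genes but Kif1b, where they lie to the left, and the WT points of a gene differ between panels although the libraries are the same.

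Genes of the synapse and of neuronal excitability were mostly gains. Beside 23 synaptic scaffold and organiser genes annotated at this size, 7 called genes of the list were gains and 1 a loss in Mutyh-/-. In Ogg1-/- the counts were 6 and 1, and in DKO 7 and 0. The annotated numbers, here and for the lists below, go by RefSeq gene length and the calls by region span, so they form no fraction. Cadps2, with a RefSeq length of 578403 bp, was called but is not among the 23. The median difference of the called genes, losses included, was 23.1, 20.5 and 21 percentage points in these genotypes. Over all genes of the class it was 18.25, 19 and 19.75, lowered by a larger share of losses. Gains alone had a class median of 20.5 in Mutyh-/-, 20.75 in Ogg1-/- and 20.5 in DKO. Gains made up 53.6%, 59.2% and 71.7% of the class in the same order. Shank2, Syn2, Dlgap1 and Stxbp5l recur as gains in each genotype, and the genotypes share their WT libraries, so these counts are not independent. The losses were Cadps2, a priming factor of dense-core vesicles, with 54% and 71% in Mutyh-/-, against 88% and 82% in WT, and Tanc1, a postsynaptic scaffold, with 61% and 61.5% in Ogg1-/-, against 82% and 80% in WT. Among cation channel genes (36 annotated), 6 were gains in each genotype and 1 was a loss, in Mutyh-/-. The loss was Ano1, a calcium-activated chloride channel that the list holds by its family, with 44.5% and 44% in Mutyh-/-, against 67% and 62% in WT. It lies 167873 bp from Shank2, which was a gain in the same genotype. The gains of the list likewise include Ano3, of the same family as Ano1, in Ogg1-/- and DKO. They also include Fgf12 in Mutyh-/-, Unc79 in DKO, and Unc80 in Mutyh-/- and DKO, so the list is broader than cation channels. Kcnd3, a potassium channel of A-type currents, gained 19.75 in Mutyh-/-, 18.75 in Ogg1-/- and 22.5 in DKO. Trpm3, a heat-sensitive cation channel, gained 22.75 in Ogg1-/-. Gria2, the AMPA receptor subunit that sets calcium permeability, was a gain in Mutyh-/- (66.5% and 83%, against 55% and 54% in WT) and in Ogg1-/- (68.5% and 83.5%, against 59% and 51% in WT).

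Most called cadherin genes were gains, but many of these are not separate observations, and over the whole class gains made up 53.6% in Mutyh-/-, 59.2% in Ogg1-/- and 71.7% in DKO. Among cadherin and protocadherin genes (38 annotated), 4 were gains and 1 a loss in Mutyh-/-, 5 and 2 in Ogg1-/-, and 5 and 0 in DKO. The alpha protocadherins, which give neurons their surface identity, share their last exons, so that the regions of Pcdha1, Pcdha2, Pcdha3, Pcdha4 and Pcdha9 in Ogg1-/- overlap almost wholly on chromosome 18. Pcdha3 had 95.5% and 86.5% in Ogg1-/-, against 70.5% and 66.5% in WT, and the gamma cluster genes Pcdhgb1 and Pcdhgb2, which also overlap, were both losses of -17.75. Among immunoglobulin adhesion genes (15 annotated), 1 was a gain and 1 a loss in Mutyh-/-, 2 and 0 in Ogg1-/-, and 4 and 0 in DKO. Ncam1, the neural cell adhesion molecule, had 87.5% and 78% in DKO, against 50% and 68.5% in WT.

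Other lists leaned towards losses in Mutyh-/-. Among genes for ubiquitin ligases and deubiquitinases (55 annotated), 0 were gains and 7 losses in Mutyh-/-, 1 and 2 in Ogg1-/-, and 2 and 0 in DKO. Their median difference was -21 in Mutyh-/-. The annotated genes of this size had 4.3% gains and 4.65% losses in Mutyh-/-, 4.3% and 3.44% in Ogg1-/-, and 6.72% and 3.03% in DKO. Btbd11, a BTB domain protein, had 62% and 64.5% in Ogg1-/-, against 90% and 81% in WT. Among transcription factor genes (83 annotated), 3 were gains and 9 losses in Mutyh-/-, 3 and 3 in Ogg1-/-, and 7 and 6 in DKO. In DKO the largest losses were Prdm2, a zinc finger methyltransferase, with 67.5% and 63%, against 86.5% and 95% in WT, and Arntl, a core gene of the circadian clock, with 58.5% and 47%, against 79.5% and 76% in WT. Cytoskeletal and motor genes (85 annotated) had 3 gains and 8 losses in Mutyh-/-, 4 and 5 in Ogg1-/-, and 7 and 3 in DKO. Myo5a, a myosin that carries cargo into dendritic spines, was a gain of 23.75 in DKO, and Dtnb, a dystrobrevin, a loss of -24.75.

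Signalling and chromatin genes had both directions, in most of these lists at shares near that of the class: over the 3 tables together, gains made up 60% of the called cyclic nucleotide genes, 63.6% of kinases, 66.7% of Wnt and related genes and 69.2% of chromatin genes, beside 62.1% of all 543 combinations. Genes of cyclic nucleotide, lipid and calcium signalling (42 annotated) had 4 gains and 3 losses in each single knockout and 7 and 4 in DKO. Regulators of small GTPases (72 annotated) had 3 and 5 in Mutyh-/-, 1 and 2 in Ogg1-/-, and 5 and 1 in DKO. Axon guidance genes (26 annotated) had 1 and 1, 2 and 3, and 2 and 1 in the same order of genotypes, with the receptor Nrp1 gaining 17.5, 21.75 and 17. Kinases (31 annotated) had 2 and 1, 3 and 3, and 2 and 0. Genes of Wnt, TGF-beta, Hedgehog and Notch signalling (24 annotated) had 0 and 1, 0 and 0, and 4 and 1. Egfr, the epidermal growth factor receptor, was a loss of -22.25 in Ogg1-/-, and Notch2, a Notch receptor, had differences of -18 in Mutyh-/- and -18.75 in DKO. Among chromatin genes (46 annotated), 3 were gains and 1 a loss in Mutyh-/-, 2 and 3 in Ogg1-/-, and 4 and 0 in DKO. Chd9, a chromatin remodeller, gained 24.75 in Mutyh-/- and 21.25 in DKO, and the losses in Ogg1-/- included Arid4b (-21.25) and the histone acetyltransferase gene Kat6b (-20.75).

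Among RNA-binding genes (36 annotated), 1 was a gain and 1 a loss in Mutyh-/-, 4 and 2 in Ogg1-/-, and 5 and 0 in DKO. Mbnl1, a splicing factor known from myotonic dystrophy, had 84% and 87.5% in Ogg1-/-, against 73% and 55% in WT, and 89% and 90% in DKO, against 71.5% and 56.5% in WT. Stau2, which carries RNA into dendrites, gained 24.5 in Ogg1-/- and 18 in DKO, where its DKO libraries lay apart at 67% and 92%. Transporters (57 annotated) had 2 gains and 0 losses in Mutyh-/-, 5 and 2 in Ogg1-/-, and 6 and 1 in DKO. Extracellular matrix genes (73 annotated) had 3 and 1, 5 and 2, and 1 and 2. Here 1 of the DKO losses, St8sia3os, is an opposite-strand transcript that the list's pattern caught.

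Cell type markers were few among genes of this length. Of the astrocyte markers (1 annotated of this size), Slc1a2, the main glutamate transporter, was a gain in DKO, with 74% and 78.5%, against 59% and 56% in WT. Among markers of the oligodendrocyte lineage (6 annotated of this size), Qk and Pex5l were gains in DKO (19.75 and 19.25). Zfp536, whose RefSeq length of 456017 bp lies outside that number, was a loss in Mutyh-/- (-19.5) and Slc44a1 a loss in Ogg1-/- (-18.75). None of 2 neuron markers, 5 microglia markers and 4 vessel and choroid plexus markers of this size had a call in any genotype. Of all annotated genes of this size, 8.95% had a call in Mutyh-/-, 7.74% in Ogg1-/- and 9.76% in DKO. With such shares, the lack of calls in lists this small says little. In DNA from the whole hippocampus, a shift in the share of cell types and a change within cells cannot be told apart. Whether the direction within a list moved with the span or the CG density of its genes was not tested.

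**Figure D5:**
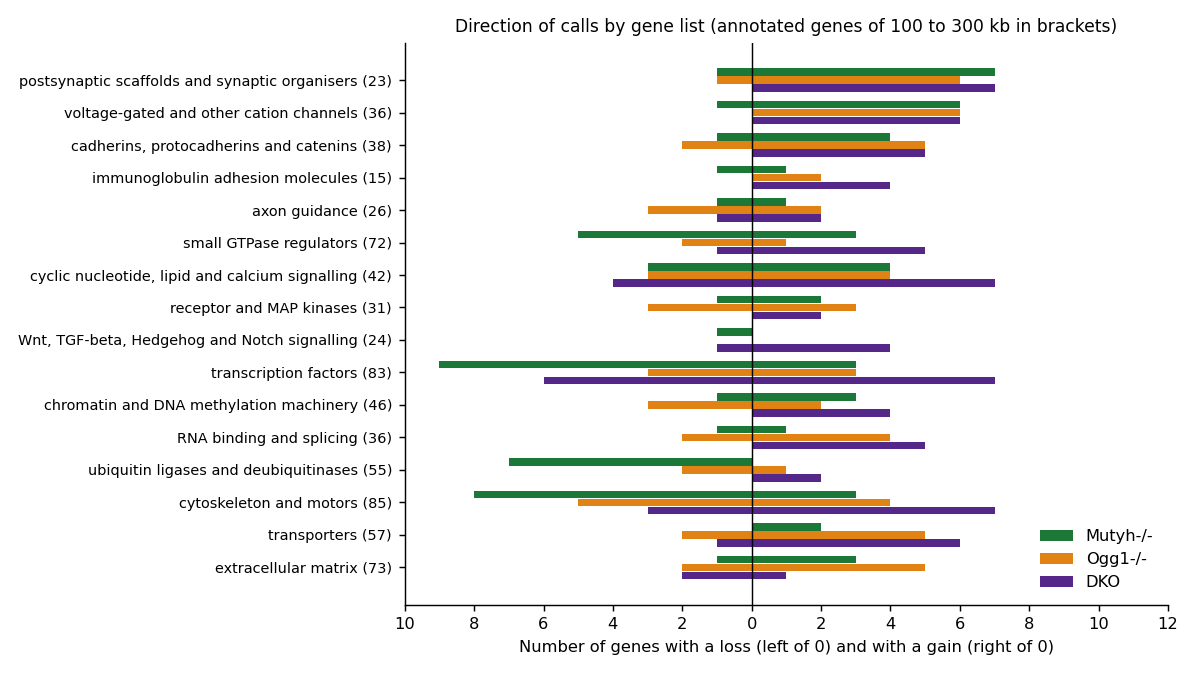
Number of genes with a loss (left of 0) and with a gain (right of 0) in each gene list and knockout genotype. The number in brackets counts annotated genes of 100 to 300 kb by RefSeq length, whereas calls go by region span. Synaptic and channel genes lie almost wholly to the right in each genotype, and ubiquitin, transcription factor and cytoskeletal genes lie mostly to the left in Mutyh-/-.

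Few of these genes were also called at a transcript start or end, and the calls there ran mostly towards loss. A TSS region (the transcription start site with 1 kb on either side) was called in 6 genes in Mutyh-/-, 1 in Ogg1-/- and 5 in DKO. By its largest entry each was a loss. Losses made up 87.8%, 88.9% and 89% of all called autosomal TSS genes in these tables, so this lean is that of the whole table. In 7 of the 12 the gene body was a gain, so start and body were called in opposite directions. Some of these starts lie inside the body entry they are set against, as in Arpp21, in Fer and in Dab2ip in DKO. In Fer the start is chr17:63936972-63938971 and the body chr17:63879066-64138496. There the contrast is between a body and a part of it. Rcan2, an inhibitor of calcineurin, had a body at 93% and 80.5% in DKO, against 58.5% and 69.5% in WT. Its called TSS, which lies inside the gene (chr17:43952191-43954190), was at 33% and 36% in DKO, against 51.5% and 57.5% in WT.

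Arpp21, a cyclic AMP-regulated phosphoprotein of neurons, showed both directions within 1 gene in Mutyh-/-. Its body (chr9:112066091-112231501), which holds both TSS regions given here, gained 17.25 percentage points. Its TSS region at chr9:112184950-112186949 had 42.5% and 52.5% in Mutyh-/-, against 64% and 72.5% in WT. Another TSS region of the gene, at chr9:112216352-112218351, had 67% and 63% in Mutyh-/-, against 46% and 44% in WT. The first of these starts was also a loss in DKO, with 47.5% and 45.5%, against 68.5% and 70.5% in WT.

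Dab2ip, a Ras GTPase-activating protein, was a loss in body and TSS in Mutyh-/- and DKO. The longest entry of its body in DKO (chr2:35559458-35729994) had 58.5% in both libraries, against 76.5% and 78% in WT. A shorter entry with the same end (chr2:35622981-35729994) had 79.5% and 77% in DKO, against 60.5% and 58.5% in WT, which is a gain of the same size, 18.75. Nested entries of opposite direction were also found in Clasp2, a microtubule plus-end protein, in Mutyh-/-, and in Cntn1, contactin, in Ogg1-/-. The choice of the transcript start therefore turned the call in 3 of 51 combinations with several entries. In 24 of the 51 all entries had identical values, and in the other 27 the WT mean varied over entries by a median of 5 percentage points.

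At the TES region (the transcription end site with 1 kb on either side) 2 genes were called in Mutyh-/-, 3 in Ogg1-/- and 3 in DKO. Of these, 1 was a loss in Mutyh-/-, 3 in Ogg1-/- and 2 in DKO, where losses made up 85.8%, 83.6% and 79.1% of all called autosomal TES genes. Celf4, an RNA-binding protein of neurons, had its TES at 55% and 47% in DKO, against 79.5% and 79% in WT, while its body gained 19.25 percentage points. Myo1d, an unconventional myosin, had its TES at 38% and 37% in Ogg1-/-, against 58.5% and 50% in WT, and at 59% and 58% in DKO, against 43% and 40% in WT. The body of the same gene was a gain in Ogg1-/- and a loss in DKO, so body and end were opposite in both genotypes.

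Outside the CG context, the bodies of these genes were called for CHH methylation (a cytosine followed by no guanine in the next 2 bases) in 48 genes in Mutyh-/- (26.5%), 56 in Ogg1-/- (35.7%) and 29 in DKO (14.1%). Among all annotated genes of 100 to 300 kb the shares were 22.9%, 31.1% and 13.4%, close to those of the CG-called genes. All of these CHH calls were losses except 1 in DKO, where losses made up 99.4%, 99.7% and 97.6% of all CHH gene bodies in the 3 tables. The exception was Rcan2, with a CHH level of 32% and 37.5% in DKO, against 16.5% and 19.5% in WT, alongside its CG gain in the body. CHH losses accompanied 19 of 97 CG gains and 29 of 84 CG losses in Mutyh-/-, 31 of 93 and 25 of 64 in Ogg1-/-, and 16 of 147 and 12 of 58 in DKO.

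The same region can be read in several tables, which shows how far a WT value moves with the comparison. In 117 regions called in more than 1 genotype, the level of WT replicate 1 ranged over the tables by a median of 7 percentage points and that of WT replicate 2 by 6.5. In Pds5b the largest range was reached for WT replicate 1, 30.5 percentage points between the Mutyh-/- and the DKO table, although the library is the same. For WT replicate 2 the largest range was 37.5, in Zeb2 between the Ogg1-/- and the DKO table, where the calls were opposite. Levels of a gene should therefore be compared within a table and not across genotypes.

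At the limits of the span rule, the regions nearest to either side were as follows. Just under 300 kb stood Pde4b (299183 bp) in all 3 tables, a gain of 20 in Mutyh-/-, 21.75 in Ogg1-/- and 25.5 in DKO. Just above 300 kb, outside the rule, were gains in Mapk10 in Mutyh-/- (301387 bp, 17.75), Dnah7b in Ogg1-/- (304813 bp, 21.25) and Tox in DKO (301338 bp, 18.25). Just above 100 kb, Gas7 (100493 bp) was a gain of 19 in Ogg1-/- and Zfp608 (100136 bp) a loss in DKO with a difference of -17.75. Just under 100 kb, outside the rule, Iqsec3 in Ogg1-/- (98751 bp, -20.25) and Fam53b in DKO (99113 bp, -19.5) were losses.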

How the data were processed

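The authors trimmed the bisulfite reads, checked them with FastQC, aligned them to GRCm38 and extracted methylation with Bismark 0.22.3, per the submitters' processing notes and the methods. Cytosines with coverage under 4 were removed, and HMST-Seq-Analyzer joined sites at most 200 bp apart and tested regions with at least 5 sites by a Wilcoxon test per library pair. The deposited median columns hold a score between 1 and 2 for each library of a pair, taken here as the methylated fraction with 1 added, so the level is the score minus 1 in percent. A library's level is the mean over its 2 pairs. The authors' own comparison columns, relative ratios and p-values per pair, were not used. Only called regions are in the tables, and the depth behind each region's value is unknown.

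Members were entries of gene bodies on chromosomes 1 to 19 spanning over 100 and up to 300 kb. Named genes were the 6 largest gains and losses per genotype, the 12 largest in all 3 tables, up to 4 per gene list, the genes of opposite direction, those with another readout and those at the span limits. Members and lists were chosen with earlier results of these data known. Counts and medians were computed with Python 3.11.15, pandas 2.3.3, numpy 2.4.6, scipy 1.17.1, matplotlib 3.10.9 and pysam 0.24.0, and the scripts were tested on simulated data. Gene names, lengths and sequences came from RefSeq (GRCm38.p6), and exons from GENCODE vM21. No test was run. Alternatives were every entry, other spans, a relative ratio of 0.15, a WT level of 60 to 80%, leaving out each replicate, same-numbered pairs and the median over pairs. A few items are not reported here.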

Additional observations from a re-analysis of the deposited data

Results flagged for a closer look

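In 7 genes the called direction differed between genotypes, with every library of one genotype moving one way against WT and every library of another the opposite way. The difference between genotypes was not tested, and the comparisons share the WT libraries, whose levels differ between the tables. Adcy9, an adenylyl cyclase, was higher in DKO by 18.25 percentage points (77% and 69.5% in DKO, against 55% in both WT libraries). In Mutyh-/- it differed by -19.25 (52.5% and 56% in Mutyh-/-, against 84.5% and 62.5% in WT). Its WT mean was 55% in the DKO table and 73.5% in the Mutyh-/- table. Arhgef26, a guanine nucleotide exchange factor, differed by 19.5 in DKO and by -21 in Ogg1-/-. Cdh10, a cadherin, differed by 19.5 in DKO and by -19.5 in Mutyh-/-, with a WT mean of 68.5% in the DKO table and 83.75% in the Mutyh-/- table.

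Col11a1, a collagen chain, differed by 24.5 in Mutyh-/- and by -22.75 in Ogg1-/-, where the WT libraries were at 78.5% and 96%. Eepd1, an endonuclease/exonuclease family gene, differed by 19.75 in DKO and by -19.25 in Ogg1-/-. Zeb2 differed by 19.5 in DKO and by -22.5 in Ogg1-/-, and its DKO libraries were far apart at 86.5% and 54.5%. Myo1d differed by -20.25 in DKO, by -18 in Mutyh-/- and by 22.25 in Ogg1-/-. In each of these genes the WT mean was higher in the table with the loss than in the table with the gain. What part the shift of the WT level plays was not tested.

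In the CHG context (a cytosine, then a base other than guanine, then a guanine), which no comparison above used, the body of Cux1, a homeobox transcription factor, was called in Ogg1-/-. Its level was 19% and 28.5% in Ogg1-/-, against 39.5% and 62.5% in WT, a difference of -27.25.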

How the results depend on the processing

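The majority of gains in Mutyh-/- turned under 2 alternatives: the share of gains was 49.2% with spans of 120 to 250 kb (61 gains, 63 losses) and 47.8% with the RefSeq gene length (85 gains, 93 losses). In Ogg1-/- and DKO gains stayed the majority under both. No median and no named gene changed direction under the alternatives run on it, but for several of these the call rule fixed that outcome. A region was deposited only when every library pair was called in the same direction. Leaving out a replicate, keeping same-numbered pairs or taking the median over pairs therefore cannot turn a sign. These settings show only how far the sizes moved, and say nothing about whether the direction is robust. The unchanged direction does not extend to nested entries. The named genes Dab2ip in DKO and Cntn1 in Ogg1-/- each have a shorter entry of opposite direction. For Cntn1 only that shorter entry (211840 bp, -20) lies within 120 to 250 kb. With a relative ratio of at least 0.15 in every pair, 0 gains and 0 losses were left in Mutyh-/- and in DKO, and 1 gain (Mup2, 29 percentage points, 100% gains) and 0 losses in Ogg1-/-, so sizes just past the authors' threshold make up nearly the whole class. With spans of 120 to 250 kb, 56 gains and 48 losses were left in Ogg1-/-. At WT levels of 60 to 80% there were 48 gains and 31 losses in Mutyh-/- (60.8% gains), 29 losses in Ogg1-/- (68.5% gains) and 93 gains and 15 losses in DKO (86.1% gains). Without each replicate in turn, the median gain was 20 to 20.5 in Mutyh-/-, 20.5 in Ogg1-/- and 20 to 20.5 in DKO, and the median loss was -20.5 to -19.5, -20.5 to -19.25 and -20.5 to -20. Counting every entry, the median over pairs and the RefSeq gene length moved no count by more than 1.5 times and no median by more than the spread between replicates. Of the values of named genes under these settings, 1045 moved by less than that spread and 29 by more. The alternatives with 2 stricter p limits were not run, since they need the authors' own p-values.

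The replicate numbers do not pair the libraries: same-numbered deviations correlated at 0.117 in Mutyh-/-, -0.048 in Ogg1-/- and -0.0528 in DKO. With the replicate block, which keeps same-numbered pairs only, the median gain was 21, 20.5 and 20 and the median loss -19.5, -20 and -20.25 in Mutyh-/-, Ogg1-/- and DKO.

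The main limits are 2 libraries a genotype, a WT pair shared by all 3 comparisons, levels of a library that depend on its partner, unknown depth behind each region's value and tables that hold called regions only.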
